A study of Mus musculus with 10 samples.

Results

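Organoids in which Cdc42 was deleted in culture (AdKO) were compared with organoids grown from oviducts in which Cdc42 had already been deleted in the animal (PgrKO), using the 6 knockout libraries of 10 RNA-seq libraries in the series. The AdKO libraries were AdKO_Con and AdKO_Diff, 1 each. Whether they came from 1 culture is not stated, and the fits below count them as separate libraries of the genotype. The PgrKO libraries were PgrKO_Con replicates 1 and 2 and PgrKO_Diff replicates 1 and 2. The question is what distinguishes an epithelium that lost CDC42 in the dish from one that lost it in the mouse.

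All organoids were grown in Matrigel from epithelium of the oviduct isthmus of mice that carried Cdc42 f/f, a Cdc42 gene with loxP sites around exon 2. The authors' methods give an age of at least 8 weeks for the females that were mated and none for the organoid donors. PgrKO organoids came from PgrCre/+ Cdc42 f/f mice, in which Cre is made from the progesterone receptor gene, so that deletion follows progesterone receptor expression in the reproductive tract and stromal cells can carry it too. AdKO organoids came from Cdc42 f/f mice without Cre, and their dispersed cells were infected in culture with the adenovirus Ad5-CMV-Cre, in which a general viral promoter drives Cre. Con organoids were kept in growth conditions, whereas Diff organoids were treated over 6 days with estrogen (E2, 10 nM) and DBZ, a Notch inhibitor (1 μM), which drive multiciliated cell formation. The 4 F/F libraries (Cdc42 f/f without Cre, 2 Con and 2 Diff) are given beside the results as levels in organoids with an intact gene. No library of organoids infected with an adenovirus lacking Cre was analysed here, so that infection and the time of deletion cannot be told apart, and neither can the mice of origin, which the labels do not name.

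CDC42 is a small GTPase that switches between a GTP-bound and a GDP-bound form, and through effectors such as the PAR6 and PAK proteins it organises actin, apical polarity and lumen formation in epithelia. The oviduct epithelium holds secretory cells, which make PAX8 and oviductal glycoprotein, and multiciliated cells, whose program runs from the regulators GMNC and MCIDAS through FOXJ1 and the RFX factors to the proteins of the moving axoneme. Estrogen and blocked Notch signalling both favour the multiciliated fate.

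The sequence that Cre removes is shown first, since both deletions target it. Cdc42 lies on the minus strand at chr4:137319696-137357720 of mm10, and exon 2 of its 2 coding transcripts spans chr4:137335975-137336129, 155 bases. Its coding part, chr4:137335975-137336079, opens the reading frame, and the start codon is in capitals.
Cdc42 exon 2, coding part (105 bases): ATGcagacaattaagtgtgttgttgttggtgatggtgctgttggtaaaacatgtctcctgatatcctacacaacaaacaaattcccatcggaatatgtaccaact
This stretch encodes the nucleotide-binding loop of the GTPase. The values used below count reads over all exons of a gene, so that transcripts without exon 2 can still contribute.

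The libraries held 11744271 to 17330672 reads recovered from the deposited values, and 12846 to 13567 genes reached 1 FPKM (fragments counted per kilobase of a gene's exons and adjusted for the size of the library). The test covered 13323 genes, those averaging 1 FPKM or more in the 6 knockout libraries, on log2(FPKM + 1), a scale that understates the change of low genes. Replicates of PgrKO_Con differed with a standard deviation of 0.56 over genes on this scale and those of PgrKO_Diff with 0.66, against 0.45 and 0.43 for the F/F pairs, and AdKO_Con differed from AdKO_Diff by no more than replicates did (0.43). Epithelial identity was clear in all 6: Epcam, an epithelial adhesion protein, measured 265 and 256 FPKM in AdKO_Con and AdKO_Diff and 226 to 342 in PgrKO, and Pax8 measured 34.9 and 28.2 in AdKO and 24.3 to 35.5 in PgrKO.

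Cdc42 mRNA was abundant in all libraries and lowest in AdKO. AdKO_Con held 81.6 FPKM and AdKO_Diff 87.9, against 104 and 105 in PgrKO_Con and 113 and 134 in PgrKO_Diff. The F/F libraries ranged from 118 to 134. Both AdKO libraries were thus below all 8 others, while the PgrKO and F/F ranges overlapped. The AdKO difference from PgrKO was a log2 fold change of -0.42 ± 0.14 (SE, n = 2 and 4, limma with state as a block), which did not pass after adjustment (Benjamini-Hochberg adjusted p = 0.205). Its size is read against the rest of chromosome 4 further on. Pgr, the gene that carries Cre in PgrKO, measured 30.4 and 12.0 FPKM in PgrKO_Con and 54.2 and 20.6 in PgrKO_Diff, against 6.82 in AdKO_Con and 16.4 in AdKO_Diff and 5.43 to 15.1 in F/F. The ranges of the knockouts overlapped (log2 fold change -1.18 ± 0.52, limma adjusted p = 0.304).

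Across the transcriptome, several matrix genes, among them Sparc, Bgn, Mgp and Mmp2, were lower in AdKO than in PgrKO, and Krt15, Il33, Hbegf and Ccn2 were higher. Which of the knockouts departed from F/F differed from gene to gene. A gene was called when its limma adjusted p was below 0.05 and AdKO and PgrKO differed by more than 1 on the log2 scale. By this rule 17 genes were higher in AdKO (0.128% of those tested) and 23 lower (0.173%), 0.300% together. A further gene, Hdac6, passed the adjusted p at a log2 fold change of 0.99, which makes 41 passing genes (0.308%), 18 higher (0.135%) and 23 lower. Before adjustment 2535 genes, or 19.0%, had a p under 0.05, the background for the unadjusted counts below. In 31.4% of all tested genes the AdKO and PgrKO libraries did not overlap, 14.1% with AdKO higher and 17.3% with AdKO lower, and these shares are the background for every such count below. The calls rested on few libraries: without AdKO_Con, AdKO_Diff or PgrKO_Diff replicate 1 no gene was called by limma, with 1460, 845 and 2714 genes at an unadjusted p under 0.05, and 6 were called without PgrKO_Con replicate 1 and 10 without PgrKO_Con replicate 2. Without PgrKO_Diff replicate 2 the count was 47. All 41 passing genes kept their direction in each of these fits.

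**Figure D1:**
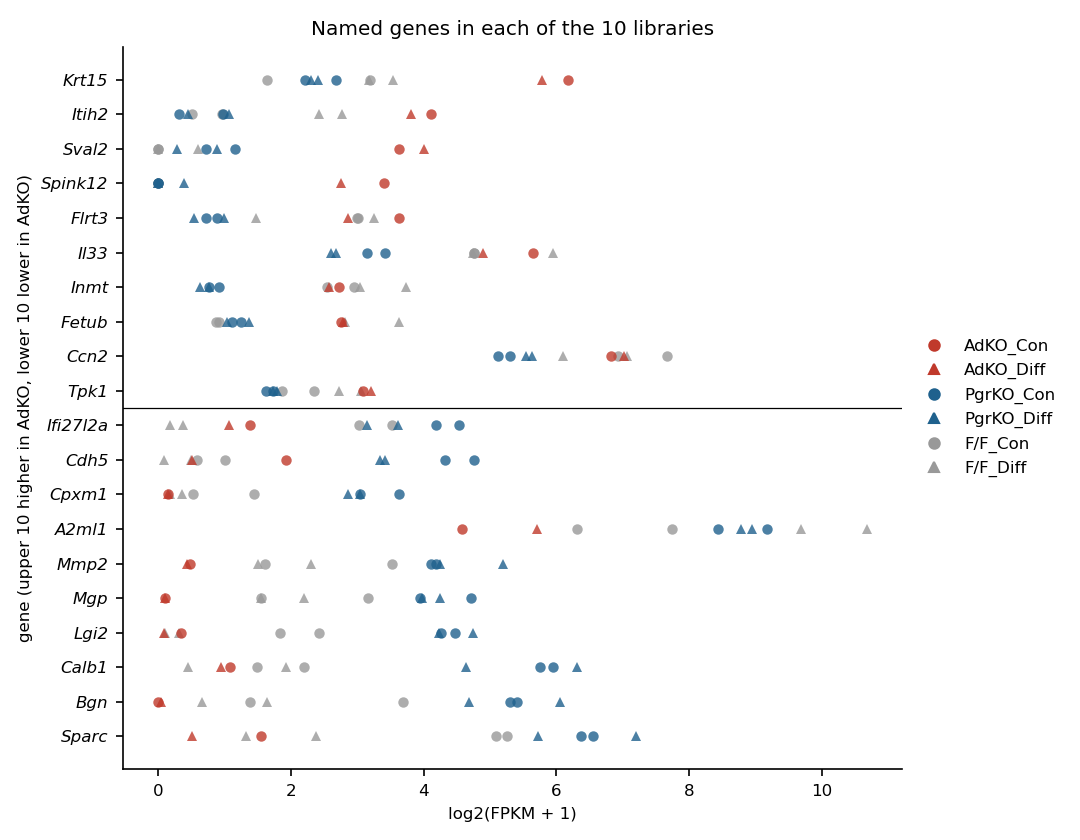
Levels of the 20 named genes, 10 higher and 10 lower in AdKO, as log2(FPKM + 1) in each of the 10 libraries, with colour for the genotype, circles for Con and triangles for Diff. The 2 AdKO libraries lie apart from the 4 PgrKO libraries in every line, as the choice of these genes required, whereas the F/F libraries lie near AdKO for Il33 and Inmt and on both sides of PgrKO for A2ml1.

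Genes lower in AdKO were led by matrix proteins. Sparc, a collagen-binding matrix glycoprotein, measured 81.8 and 92.8 FPKM in PgrKO_Con and 51.9 and 146 in PgrKO_Diff, but 1.92 in AdKO_Con and 0.423 in AdKO_Diff (log2 fold change -5.43 ± 0.47, limma adjusted p = 0.0374). F/F organoids held 32.9 and 37.3 FPKM in Con and 4.17 and 1.50 in Diff, between the knockouts or near AdKO. Bgn, the small proteoglycan biglycan, was at 41.5, 38.5, 24.7 and 65.3 FPKM in PgrKO and listed at 0 in AdKO_Con and at 0.0277 in AdKO_Diff (log2 fold change -5.34 ± 0.38, limma adjusted p = 0.0287). Mgp, an inhibitor of calcification in matrix, was at 14.3 to 25.3 FPKM in PgrKO and at 0.0697 and 0.0711 in AdKO. Mmp2, a gelatinase, was at 16.3 to 35.6 against 0.392 and 0.351, and Col4a1, a chain of basement membrane collagen, at 41.4 to 70.0 against 6.37 and 13.1. Bgn, Mgp and Mmp2 were lower in both AdKO libraries than in all 4 F/F libraries as well, which ranged from 0.576 to 11.9, 1.92 to 7.96 and 1.83 to 10.4 FPKM. Of the 26 matrix genes tested, 3 passed lower (Sparc, Mmp2 and Col4a1), none passed higher, and 17 did not overlap with AdKO lower, against the 17.3% of all genes. The median of the list was -1.97 and that of all tested genes 0.01.

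Markers of fibroblasts and endothelium moved with this difference, while those of smooth muscle were mixed. Of 2 smooth muscle markers tested, 1 was above 0 and 1 below. The smooth muscle list summed to 8.68 and 9.12 FPKM in AdKO, within the 7.61 to 24.4 of PgrKO. The summed level of 10 fibroblast markers was 189 and 164 FPKM in PgrKO_Con and 110 and 391 in PgrKO_Diff, against 36.8 and 19.5 in AdKO and 4.68 to 24.8 in F/F. Col1a1, a fibrillar collagen chain, measured 18.4 to 67.6 FPKM in PgrKO and 0.0126 and 0.141 in AdKO, and Dcn, the proteoglycan decorin, 11.2 to 97.9 FPKM against 0 and 0.0434. Of 9 fibroblast markers tested, all were lower in AdKO and 7 did not overlap, with a median of -4.17. None passed the adjusted p, although 7 were below 0.05 before adjustment, and Fbln1, a matrix glycoprotein at 36.5 FPKM in AdKO_Con, held most of the fibroblast sum there. Endothelial markers summed to 10.4 to 38.6 FPKM in PgrKO, 3.35 and 1.34 in AdKO and 1.13 to 4.71 in F/F. Cdh5, the adhesion protein VE-cadherin, was the endothelial marker that passed. It stood at 26.1, 18.9, 9.08 and 9.62 FPKM in PgrKO and 2.79 and 0.422 in AdKO (log2 fold change -2.74 ± 0.16, limma adjusted p = 0.0159).

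Leukocyte and macrophage markers split the PgrKO libraries themselves. Their sum was 1205 and 1650 FPKM in PgrKO_Con and PgrKO_Diff replicates 2 but 346 and 376 in replicates 1, against 175 and 203 in AdKO and 72.0 to 208 in F/F. C1qa, a complement protein of macrophages, showed 3.85 and 77.2 FPKM in PgrKO_Con, 5.80 and 108 in PgrKO_Diff and 0 in both AdKO libraries, and Lyz2, the macrophage lysozyme, 127, 720, 78.2 and 874 in PgrKO and 6.97 and 1.80 in AdKO. All 12 markers tested were lower in AdKO and 9 did not overlap, with a median of -3.48, and 8 of the 15 in the list stood at 0 in both AdKO libraries. Most of the AdKO sum was Cd14, a receptor for lipopolysaccharide, at 145 and 185 FPKM in AdKO and 120 to 259 in PgrKO. None passed the adjusted p, with 7 below 0.05 before adjustment. Whether organoid wells with more stromal or immune cells account for the matrix difference was not tested, and fewer such cells and less RNA per cell cannot be told apart in bulk samples. Without both PgrKO replicates 2, all 41 passing genes still passed and 491 genes were called, 189 higher and 302 lower. This fit is no test of that question, since PgrKO replicates 1 still held fibroblast sums of 189 and 110 FPKM, against 36.8 and 19.5 in AdKO. It keeps 1 library per genotype and state, so the spread behind its calls rests on few values.

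**Figure D2:**
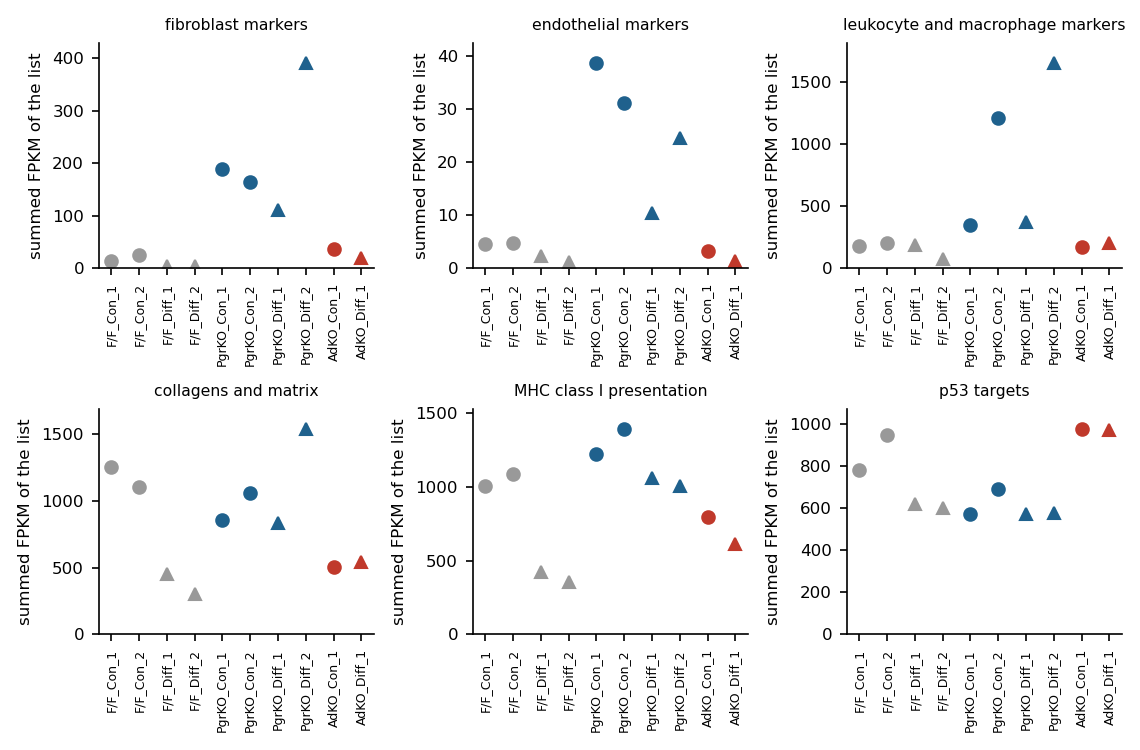
Summed FPKM of 6 gene lists in each of the 10 libraries (linear axes from 0), circles for Con and triangles for Diff. Fibroblast and endothelial sums are above every F/F and AdKO value in all 4 PgrKO libraries, leukocyte sums are highest in the PgrKO replicates 2, and the p53 target sums of 975 and 970 FPKM in AdKO lie above all 8 others.

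Not all genes lower in AdKO were stromal markers. A2ml1, a secreted protease inhibitor of the alpha-2-macroglobulin family, was abundant in PgrKO at 574, 344, 440 and 492 FPKM and stood at 22.8 in AdKO_Con and 51.4 in AdKO_Diff (log2 fold change -3.69 ± 0.34, limma adjusted p = 0.0437). F/F organoids held 78.2 to 1639 FPKM, so that AdKO was below all 8 others. Calb1, a cytosolic calcium-binding protein, was high in PgrKO alone, at 52.7, 60.9, 78.5 and 23.8 FPKM against 1.11 and 0.923 in AdKO and 0.356 to 3.56 in F/F. Lgi2, a secreted leucine-rich protein, followed the same order at 17.7 to 25.6 FPKM in PgrKO, 0.266 and 0.0647 in AdKO and 0.0756 to 4.34 in F/F. Hspb8, a small heat shock protein, differed less, with 40.5 to 55.6 FPKM in PgrKO and 12.1 and 15.5 in AdKO (log2 fold change -1.71 ± 0.10, limma adjusted p = 0.0159). Ovgp1, the oviductal glycoprotein of secretory cells, had one of the larger differences without passing: 2170, 1018, 3403 and 1856 FPKM in PgrKO against 41.3 and 252 in AdKO (log2 fold change -4.22 ± 0.59, limma adjusted p = 0.0607). In F/F it stood at 91.9 and 141 FPKM in Con and 1345 and 3822 in Diff, so that AdKO_Con lay below both F/F_Con and AdKO_Diff below both F/F_Diff libraries. Among 20 secretory genes tested, none passed, 4 did not overlap with AdKO higher and 3 with AdKO lower. Clu, the chaperone clusterin, was among those higher, at 2116 and 2276 FPKM in AdKO and 694 to 1133 in PgrKO.

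Genes higher in AdKO included a keratin and several secreted proteins that were low elsewhere. Krt15, a keratin of basal epithelial cells, measured 70.9 FPKM in AdKO_Con and 54.1 in AdKO_Diff, against 3.62, 5.38, 4.30 and 3.91 in PgrKO and 2.12 to 10.6 in F/F. Its log2 fold change of 3.58 ± 0.17 passed (limma adjusted p = 0.0152) and kept passing in 3 of the 6 fits that left out 1 library. Itih2, a hyaluronan-binding protein, had a mean of 14.6 FPKM in AdKO, against 0.233 to 1.08 in PgrKO and 0.413 to 5.82 in F/F. Spink12, a serine protease inhibitor, was at 9.61 and 5.70 FPKM in AdKO, listed at 0 in 3 PgrKO libraries and at 0.312 in PgrKO_Diff replicate 1, and listed at 0 in all F/F libraries. Psca, a small surface antigen of the urogenital epithelium, was at 3.56 and 3.93 FPKM against 0 to 0.246 in PgrKO and 0.336 to 1.27 in F/F. These genes separated AdKO from every library, F/F included. In all, 8 passing genes lay above and 13 below all 8 other libraries in AdKO, where 4.60% and 4.85% of all tested genes did. This is a description only, since passing genes were chosen for separating AdKO from PgrKO.

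A second group was lower in PgrKO than in both AdKO and F/F. Il33, an alarmin stored in epithelial nuclei, measured 49.3 and 28.7 FPKM in AdKO and 25.6 to 60.8 in F/F, but 9.67, 7.81, 5.40 and 5.09 in PgrKO (log2 fold change 2.31 ± 0.12, limma adjusted p = 0.0159). Flrt3, a membrane protein of cell adhesion and repulsion, stood at 11.3 and 6.25 FPKM in AdKO, 1.77 to 8.46 in F/F and 0.452 to 0.982 in PgrKO. Inmt, a methyltransferase of indoleamines, was at 5.58 and 4.96 FPKM in AdKO, 4.83 to 12.3 in F/F and 0.549 to 0.878 in PgrKO, and Ccn2, a matricellular protein and target of YAP, at 113 and 129, 67.4 to 203 and 33.8 to 48.7. Hdac6, the deacetylase of tubulin, belonged here with 22.6 and 18.0 FPKM in AdKO, 12.9 to 20.5 in F/F and 8.07 to 10.9 in PgrKO. State by state, AdKO was above F/F for Hdac6 in Con (20.5 and 18.7 in F/F) and in Diff (12.9 and 15.0). In Con alone AdKO was above F/F for Il33 (26.0 and 26.1 in F/F) and Flrt3 (7.01 and 6.94). For Inmt and Ccn2 AdKO lay within or below F/F in each state. Over all passing genes, PgrKO lay above the 6 AdKO and F/F libraries in 7 and below them in 6, which the same choice bears on. Of all tested genes, 5.85% and 3.65% did. The F/F mean was nearer to AdKO for 9 of 18 passing genes higher in AdKO and for 17 of 23 lower. Of all tested genes 55.6% had F/F nearer to AdKO, 3460 of the 6763 above 0 and 3943 of the 6560 below 0.

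Keratins of basal and squamous cells and ligands of the ERBB receptors were mostly higher in AdKO. Of 12 basal and squamous genes tested, 1 passed (Krt15), 7 did not overlap with AdKO higher and none with AdKO lower, and the median was 0.84. Ivl, the cornified envelope protein involucrin, measured 15.4 and 25.1 FPKM in AdKO, 1.96 to 3.63 in PgrKO and 7.44 to 29.5 in F/F, with a limma adjusted p of 0.0532. All 9 ERBB genes tested had a difference above 0, 6 did not overlap, and the median was 0.40. Hbegf, a membrane-anchored ligand of the EGF receptor, passed at 24.6 and 17.3 FPKM in AdKO and 7.68 to 9.31 in PgrKO (log2 fold change 1.23 ± 0.12, limma adjusted p = 0.0493). Areg, a related ligand, stood at 7.55 and 13.8 FPKM in AdKO and 0.827 to 3.71 in PgrKO (limma adjusted p = 0.116). F/F levels of Hbegf (4.12 to 23.2 FPKM) overlapped those of AdKO, and F/F levels of Areg (4.62 to 59.4) covered them.

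Targets of p53, the transcription factor of the DNA damage response, were higher in AdKO as a group without a single call. Of 25 tested, 21 were above 0 and 14 did not overlap with AdKO higher, against the background of 14.1%, and none did not overlap in the other direction. The median was 0.61 (0.60 in Con and 0.64 in Diff), and it stayed between 0.55 and 0.72 when any 1 library was left out. Cdkn1a, the cell cycle inhibitor p21, measured 94.3 and 95.3 FPKM in AdKO, 29.9 to 48.4 in PgrKO and 60.2 to 86.5 in F/F. Mdm2, the ligase that degrades p53, stood at 39.6 and 41.0 FPKM in AdKO, 20.7 to 28.2 in PgrKO and 25.3 to 37.8 in F/F. The 2 genes had limma adjusted p values of 0.0922 and 0.0994, and none of the 25 passed, with 15 below 0.05 before adjustment, all higher in AdKO.

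Most genes of antigen presentation had a difference below 0. Of 15 MHC class I genes tested, 13 were below 0 (49.2% of all tested genes were) and 9 did not overlap with AdKO lower, with a median of -0.58. H2-T22 and H2-T23, nonclassical class I molecules, passed. H2-T22 was at 9.16, 7.86, 9.10 and 9.62 FPKM in PgrKO and 2.13 and 2.35 in AdKO (log2 fold change -1.61 ± 0.11, limma adjusted p = 0.0287), and H2-T23 at 8.80 to 10.0 against 2.92 and 1.93. AdKO was below all 4 F/F libraries too, which ranged from 3.86 to 6.71 FPKM for H2-T22 and 7.98 to 14.7 for H2-T23. These genes, the pseudogene H2-K2 and the pseudogene Gm8801 lie in the major histocompatibility region of chromosome 17 and belong to a family of near-identical copies whose reads the counting may have split, so their values are uncertain. B2m, the light chain that all class I molecules share, is on chromosome 2 and stood at 312 and 218 FPKM in AdKO and 397 to 679 in PgrKO (limma adjusted p = 0.113), while F/F held 463 in both Con libraries and 140 and 129 in Diff.

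Among 32 interferon-stimulated genes tested, 25 were below 0 and the median was -0.46. Before adjustment 16 had a limma p under 0.05, all lower in AdKO, against 19.0% of all genes in either direction. In 6 the libraries did not overlap with AdKO lower, close to the 17.3% of all genes, and in none with AdKO higher. After adjustment 1 passed. This was Ifi27l2a, a mitochondrial membrane protein induced by interferon, at 17.1, 22.1, 7.87 and 11.2 FPKM in PgrKO and 1.61 and 1.09 in AdKO (log2 fold change -2.64 ± 0.23, limma adjusted p = 0.0391). F/F stood at 7.12 and 10.4 FPKM in Con and 0.295 and 0.133 in Diff, so that AdKO_Con lay below F/F_Con and AdKO_Diff above F/F_Diff. Interferon acts through a response element whose core is GAAA, any 2 bases and GAAA again. Searched on both strands of the RefSeq promoters (GRCm38.p6, a window around each start site), the element occurred in 16 of the 26 list genes with a promoter and in 3.99% of 27025 genes. Among 9766 tested genes with a promoter, 3.69% had it. The element is in capitals below, printed as TTTC, 2 bases and TTTC on the strand shown. The promoter stretches are of Gbp2 and of H2-T22 and H2-T23, class I genes that passed but are not in the interferon list. They were shown because they hold a match, and no stretch of Ifi27l2a is shown.
H2-T22 (chr17:36042899-36042958, minus strand): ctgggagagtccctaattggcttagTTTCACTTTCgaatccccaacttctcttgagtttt
H2-T23 (chr17:36032791-36032850, minus strand): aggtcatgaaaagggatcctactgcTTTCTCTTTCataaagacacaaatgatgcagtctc
Gbp2 (chr3:142620579-142620638, plus strand): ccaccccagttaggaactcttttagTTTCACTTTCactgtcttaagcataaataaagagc
Gbp2, a GTPase induced by interferon, was at 9.56 and 5.33 FPKM in AdKO and 9.58 to 17.9 in PgrKO and did not pass (limma adjusted p = 0.185). A match describes the letters only. The H2-T23 stretch lies before a RefSeq start site but inside the GENCODE model of the gene (chr17:36029773-36032855).

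No multicilia gene passed in either state, and the medians of AdKO and PgrKO lay farther apart in Diff than in Con. Over the 110 genes tested in 6 cilium lists, the median level on log2(FPKM + 1) was 2.55 in AdKO_Con, between the 2.06 and 2.83 of PgrKO_Con, and 80 of the 110 AdKO_Con values lay within the range of the PgrKO_Con pair. In Diff, AdKO_Diff had a median of 2.96 and the PgrKO_Diff pair 1.91 and 2.05, with AdKO_Diff above both in 105 genes and yet below both F/F_Diff libraries in 109, whose medians were 4.62 and 4.98. The AdKO minus PgrKO difference had a median of 0.14 in Con, 0.97 in Diff and 0.52 over both states, and 105 of the 110 genes were above 0, against 50.8% of all tested genes. By state, 74 were above 0 in Con and 106 in Diff, where all genes had 54.0% and 47.8%, and the Diff response was more positive in AdKO in 106, against 44.1% of all genes. In 16 of the 110 genes the libraries did not overlap, all with AdKO higher, close to the 14.1% of all genes. None passed, with 16 below 0.05 before adjustment. Leaving out 1 library gave a median over both states of 0.14 without AdKO_Diff, 0.97 without AdKO_Con and 0.74 without PgrKO_Con replicate 2, the highest PgrKO library.

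**Figure D3:**
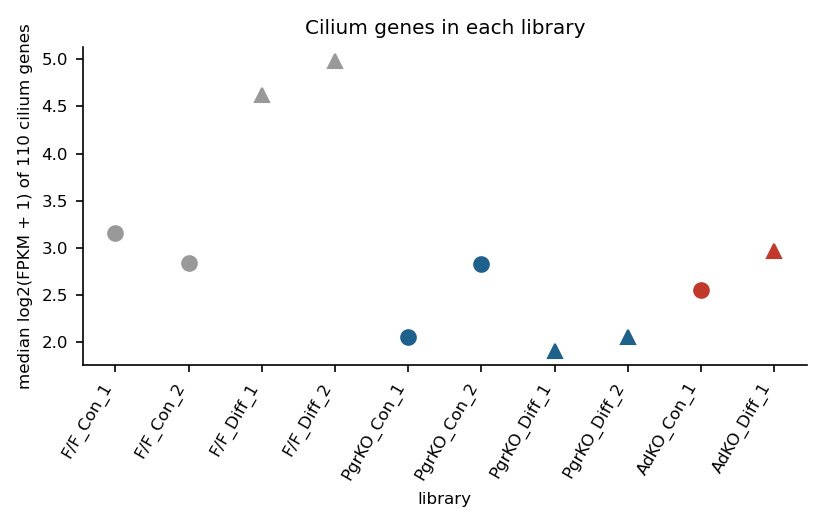
Median log2(FPKM + 1) over 110 cilium genes in each of the 10 libraries, circles for Con and triangles for Diff. AdKO_Diff at 2.96 lies above both PgrKO_Diff libraries and below both F/F_Diff libraries, and AdKO_Con at 2.55 lies between the 2 PgrKO_Con libraries.

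Foxj1, the transcription factor of motile cilia, measured 102 FPKM in AdKO_Con and 138 in AdKO_Diff, against 37.9 and 111 in PgrKO_Con and 30.5 and 40.1 in PgrKO_Diff, and 136 to 534 in F/F. The knockout ranges overlapped through PgrKO_Con replicate 2 (log2 fold change 1.29 ± 0.52, limma adjusted p = 0.276). Gmnc, the regulator at the top of the program, showed no such order, at 1.20 and 3.31 FPKM in AdKO and 1.61 to 2.71 in PgrKO. Mcidas stood at 4.17 and 5.40 FPKM in AdKO and 0.933 to 6.40 in PgrKO. Among the structural lists, all 21 dynein arm genes and all 31 genes of intraflagellar transport and the BBSome (the trafficking machinery of cilia) were above 0, with medians of 0.55 and 0.43. Of the intraflagellar genes, 13 did not overlap, among them Bbs5 (6.29 and 6.04 FPKM in AdKO, 3.39 to 5.10 in PgrKO) and Dync2li1, a subunit of the retrograde motor (17.8 and 20.3 against 7.96 to 15.1), and neither passed.

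Within each state, few genes were called. These fits used the means of the 6 groups over all 10 libraries and assumed that a lone AdKO library varies like the rest. In Con 1 gene was called, 0.00751% of those tested, and in Diff 5 genes, 0.0375%, with 8.96% and 15.4% of genes at an unadjusted p under 0.05. Gm13394, a processed pseudogene, was called in both, at 43.9 and 55.2 FPKM in AdKO and 0 to 0.547 in the other 8 libraries. In Diff, Mgat4c, a glycosyltransferase, stood at 15.3 FPKM in AdKO_Diff against 0.164 and 0.0878 in PgrKO_Diff, and Naalad2, a peptidase, at 35.6 against 0.450 and 1.44. AdKO_Con also held more of both than any PgrKO or F/F library, at 4.03 and 10.4 FPKM. Tmem200b, a membrane protein, was lower at 0.678 FPKM against 7.38 and 8.47, and Lgi2 was lower as in both states. These calls depended on the fit: limma on the 6 knockout libraries alone called none in either state, with 841 and 1463 genes at an unadjusted p under 0.05. The test of whether the Diff response itself differed between AdKO and PgrKO called no gene by limma (smallest adjusted p 1.00), with 262 genes (1.97%) at an unadjusted p under 0.05, and none by voom on the recovered reads, with 171. Muc5b, a gel-forming mucin, had the smallest p in that test, at 21.0 FPKM in AdKO_Con and 0.412 in AdKO_Diff, against 0.733 and 2.16 in PgrKO_Con and 0.159 and 0.371 in PgrKO_Diff.

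Chromosome 4, on which Cdc42 lies, was lower along its whole length in AdKO. The median log2 fold change of its 848 tested genes was -0.30, against 0.0024 to 0.04 on the other 18 autosomes and -0.0037 on X. It was -0.35 in Con and -0.23 in Diff. In 359 of the 848 genes, or 42.3%, AdKO did not overlap with PgrKO and was lower, while the other autosomes had 13.8% to 18.8% and all genes 17.3%. AdKO was higher without overlap in 2.95%, where all genes had 14.1%. Within each library, the chromosome 4 median relative to the F/F mean was set against that of the other autosomes. This offset was -0.42 in AdKO_Con and -0.21 in AdKO_Diff, and it lay between -0.02 and 0.02 in the 4 PgrKO and the 4 F/F libraries, whose replicates differed with a standard deviation of 0.0081. The AdKO and PgrKO offsets did not overlap (mean difference -0.30). This is a description without a test, since chromosome 4 was singled out after the chromosome medians were seen. Of the 21 chromosomes looked at, chromosome 4 alone had such a share of genes lower without overlap, and the mitochondrial genome, with a median of -0.18 over 23 genes, had 4.35%.

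**Figure D4:**
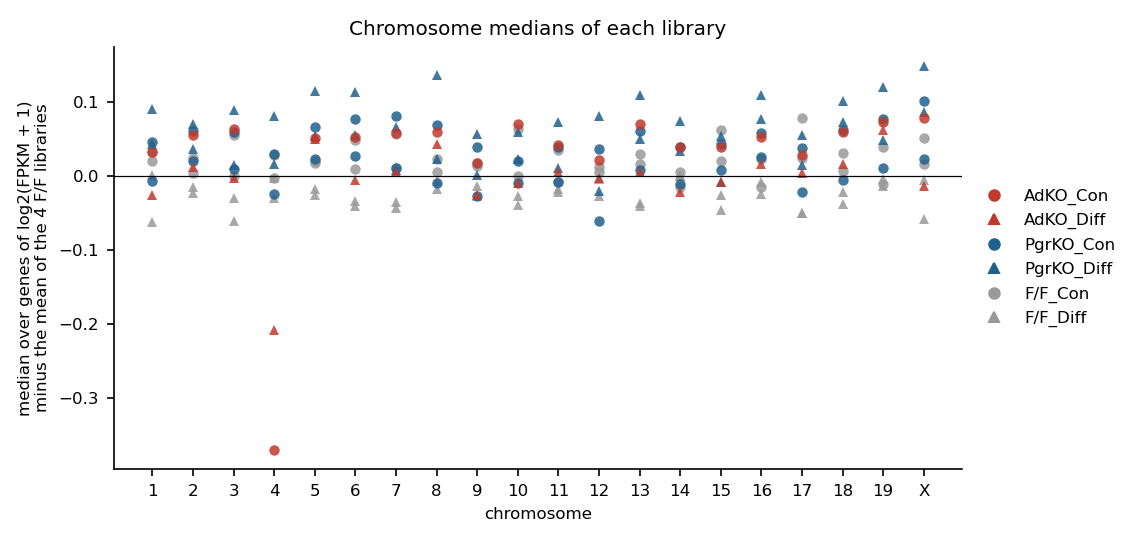
Median over the tested genes of each chromosome of log2(FPKM + 1) minus the mean of the 4 F/F libraries, for each of the 10 libraries, circles for Con and triangles for Diff. The 2 AdKO libraries fall to -0.37 and -0.21 on chromosome 4, and on every other chromosome shown both stay within the range of the other libraries or close to it.

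The shift was spread over the chromosome. In bins of 10 Mb, all 16 bins had a median below 0, and the 13 bins with at least 20 genes ranged from -0.36 to -0.19. On the other autosomes 198 such bins ranged from -0.20 to 0.24, and 1 of them lay below the highest chromosome 4 bin. The 144 genes within 5 Mb of Cdc42 had a median of -0.32, and the 703 genes farther away -0.29. Cdc42 itself, at -0.42, was 0.12 below the chromosome median, and 292 of the 848 genes (34.4%) had a lower value. How much of the Cdc42 difference belongs to this shift was not tested. Of the 41 passing genes 3 are on chromosome 4 (Calb1, Plpp3 and Man1c1), and leaving the chromosome out gave 37 calls, 17 higher and 20 lower. No such shift surrounded Pgr: 124 genes within 20 Mb of it on chromosome 9 had a median of 0.03, none passed, and 29.8% did not overlap, near the 31.4% of all genes.

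No effector or regulator of CDC42 was called. Of 38 tested, 12 did not overlap with AdKO lower and 2 with AdKO higher, with a median of -0.11. Cholesterol synthesis was lower in 21 of 23 genes, 8 of them without overlap, with a median of -0.04 in Con and -0.78 in Diff and no call. Fdps, which makes farnesyl pyrophosphate, stood at 1.55 and 0.943 FPKM in AdKO and 2.83 to 4.01 in PgrKO (limma adjusted p = 0.105).

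**Figure D5:**
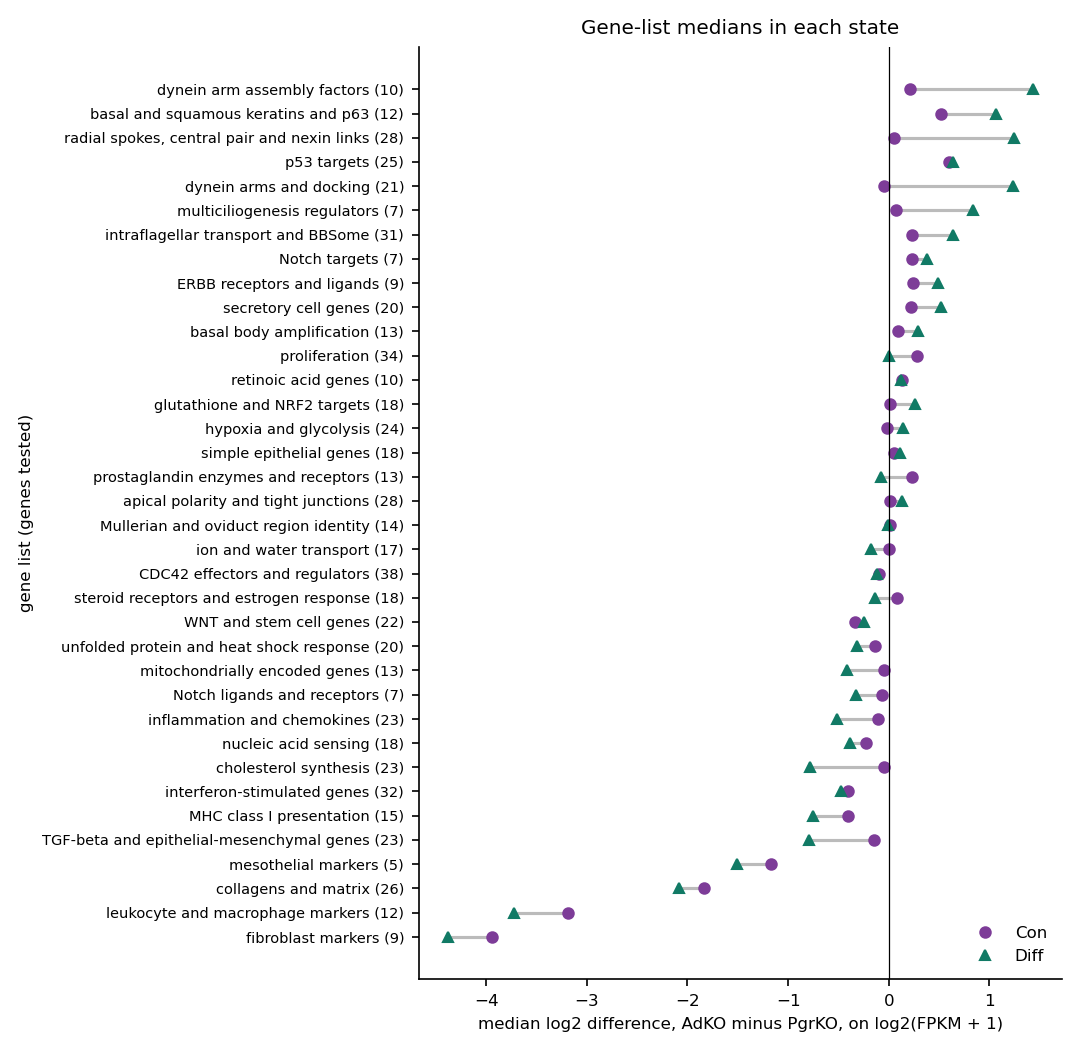
Median log2 difference between AdKO and PgrKO over the tested genes of the lists reported with at least 5, in Con (circles) and Diff (triangles), on the log2(FPKM + 1) scale, with the number of genes in brackets. Fibroblast, leukocyte and matrix lists lie far below 0 in both states, p53 targets lie at 0.60 and 0.64, and the dynein arm list moves from -0.05 in Con to 1.23 in Diff.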

How the data were processed

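10 mouse oviduct organoid libraries were deposited as 1 table of FPKM values. The authors' processing notes name HISAT2, edgeR and mm10, whereas the authors' methods name TopHat and RPKM, and which made the deposited table is not settled. The deposited FPKM gave whole reads in at least 99.99% of values (within 0.01) with GENCODE M21 exon lengths and scaled library sizes. Members and gene lists were chosen with earlier results of these data known. Libraries were grouped by title; nothing says whether replicates came from separate mice or cultures, so p-values measure the spread between these libraries.

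FPKM values were taken as log2(FPKM + 1) for the 13323 genes averaging 1 FPKM or more in the 6 knockout libraries. limma 3.58.1 (R 4.3.3) with a variance trend was fitted with state as a block and Benjamini-Hochberg adjustment over all genes, and state-specific contrasts used 6 group means over all 10 libraries. The fit was tested on simulated data with independent noise in each library. That simulation holds no culture effect shared by Con and Diff libraries, so it cannot show how the fit behaves with one. Tables and plots used Python 3.11.15, pandas 2.3.3, scipy 1.17.1 and matplotlib 3.10.9. Alternatives were pseudocount 0.1, other filters and normalizations, voom on recovered reads, no moderation, no state block, a replicate block and each library left out. The 42 lists are described by counts and medians without a list test. Named genes were the 10 called genes with the largest change in each direction (named rather than numbered genes, with 5 FPKM or more on the higher side and no overlap of libraries), up to 4 passing members of each list or 2 where none passed, and preset ciliogenesis and Notch genes; some named genes and lists are not reported here. Gm13394, Gm8801, Gm8730, Psca, Hspb8, Mgat4c, Naalad2 and other genes outside this rule were named after their values were seen. Chromosome medians were planned, and the comparison by library, bin and distance was added after the data were seen. Depth of 11744271 to 17330672 reads limits low genes, and counting error is not separately modelled. 1 repeated symbol was left out.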

Additional observations from a re-analysis of the deposited data

How the results depend on the processing

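The count of 40 called genes over both states depended on the settings. It was 189 with a pseudocount of 0.1, 5 without a filter, 223 in the fit of all 10 libraries, 126 without the state block, 14 with voom on recovered reads, and 0 in the unmoderated linear model (2033 genes at an unadjusted p under 0.05) and at an adjusted p under 0.01. Leaving out 1 library gave 0 to 47 calls, and leaving out both PgrKO replicates 2 gave 491. All 41 passing genes kept their direction under every alternative in which they were tested. The 1 call in Con became 0 with a pseudocount of 0.1 and in the fit of the 6 knockout libraries, and ranged from 0 to 1 without single libraries. The 5 calls in Diff became 2 with a pseudocount of 0.1 and 0 in the fit of the 6 knockout libraries, and ranged from 0 to 111, the highest without PgrKO_Diff replicate 1 and 0 without any 1 of the F/F libraries. The test of the Diff response called 0 genes throughout.

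Paired by number, the replicate block raised the count to 395 over both states and gave 0 in Con and 0 in Diff. AdKO has no replicate 2, so this fit rests on the replicates 1, and the numbers are not stated to mark shared mice or cultures. PgrKO replicate deviations in Con and Diff correlated at 0.56 over genes and those of F/F at -0.02. Where Con and Diff libraries share a culture, the standard errors and p-values given here count them as independent although they are not.

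The chromosome 4 median of -0.30 was -0.35 with a pseudocount of 0.1 and -0.10 without a filter, which adds genes averaging below 1 FPKM. It was -0.31 at a mean of 5 FPKM, -0.29 at 1 FPKM in at least 1 group and -0.28 after quantile normalization. With the replicate block and without both PgrKO replicates 2 it was -0.34. It was -0.35 with voom and -0.29 without genes within 5 Mb of Cdc42. Without single libraries it ranged from -0.35 to -0.23.

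Single genes that changed sign had not passed. Acta2 was -0.20 with voom. Without single libraries Acta2 ranged from -0.83 to 1.03, Cdc20b from -0.026 to 1.82, Deup1 from -0.087 to 1.51, Gmnc from -0.67 to 0.55 and Myb from -0.36 to 0.62. No median of all genes moved by over 0.1. AdKO has 1 library per state, which limits these comparisons, and depth limits low genes.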

Other observations

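No regional identity gene of the oviduct passed. Nr2f1, a nuclear receptor that patterns developing organs, measured 16.2 and 9.75 FPKM in AdKO, 8.31 to 14.2 in F/F and 0.333 to 2.03 in PgrKO (log2 fold change 2.86 ± 0.38, limma adjusted p = 0.0581). Hoxc8, a homeobox factor of posterior body regions, was the reverse, at 1.24 to 3.56 FPKM in PgrKO, 0.0292 and 0 in AdKO and 0 to 0.331 in F/F (limma adjusted p = 0.122). The 14 tested genes of the list had a median of 0.01, 3 did not overlap with AdKO higher and 2 with AdKO lower, near the 14.1% and 17.3% of all genes.

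Notch genes and cell cycle genes gave values in both directions. Dll4, a Notch ligand, stood at 1.42 and 0.811 FPKM in AdKO and 2.30 to 5.18 in PgrKO, and Hes1, a Notch target, at 41.5 and 34.5 in AdKO and 20.8 to 33.3 in PgrKO, and neither passed (limma adjusted p = 0.0779 and 0.334). Ccnd1, cyclin D1, was at 86.5 and 63.5 FPKM in AdKO, 16.8 to 38.7 in PgrKO and 20.7 to 74.6 in F/F (limma adjusted p = 0.0532). Of 34 proliferation genes tested, 32 were above 0 in Con and 18 in Diff, with medians of 0.28 and 0.01, and none passed. Of 5 mesothelial markers tested, 3 were below 0 and the median was -1.33, with none passing. Upk3b, a uroplakin, was at 0.679 and 0.1196 FPKM in AdKO and 2.43 to 11.4 in PgrKO, while Krt19, a keratin that epithelia also make, was at 512 and 529 FPKM in AdKO and 190 to 349 in PgrKO and held most of the summed level.

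The processed pseudogene Gm8730 was called higher in AdKO (165 and 150 FPKM against 49.6 to 60.9 in PgrKO), yet it varied more within F/F, at 3.40 and 226 FPKM in the F/F_Con pair and 1.86 and 52.9 in the F/F_Diff pair.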
